A study of Homo sapiens with 12 samples.

Results

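The proteins that coat the lipid droplets of fat cells were followed through 10 genes chosen by symbol and function. Earlier results of these data were known when they were chosen. The genes were the perilipins PLIN1 to PLIN5, the CIDE proteins CIDEA, CIDEB and CIDEC, and the fat storage-inducing proteins FITM1 and FITM2. All 10 were found among the 28901 named genes of the count table. RNA-seq was performed on adipocytes made from ASC52telo hTERT, a telomerase-immortalized line of human adipose-derived stromal cells. Before differentiation, the cells had received a lentivirus carrying either a scramble shRNA (scramble) or an shRNA against the long non-coding RNA linc-ADAIN (KD), together with the green marker ZsGreen, for which they were sorted. Every culture was first differentiated with insulin, dexamethasone, isobutylmethylxanthine and rosiglitazone, an agonist of the receptor PPARγ. Per the methods, a maintenance medium followed that kept insulin and dexamethasone but left out isobutylmethylxanthine and rosiglitazone. RNA was taken at day 14. Cells of each kind were left without LPS or treated with LPS, a bacterial cell wall component, for 4 h at 100 ng/mL. The 4 groups (scramble, scramble + LPS, KD, KD + LPS) held 3 libraries each. The model is a single line with 1 hairpin per arm, and the study describes its RNA-seq as 1 experiment in triplicate. The SDs (n = 3) and p-values therefore measure the spread between replicates within that experiment, not between experiments.

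A lipid droplet is a core of triglyceride under a single layer of phospholipid, and proteins on that layer decide whether the fat is kept or released. PLIN1 is the main perilipin of mature white adipocytes and, until it is phosphorylated, holds back the lipases, whereas PLIN2 and PLIN3 are found in most cell types. The CIDE proteins pass lipid between droplets that touch, and the FITM proteins sit in the endoplasmic reticulum, where droplets form.

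PLIN1, PLIN2, PLIN4 and CIDEC were the members lower in KD by 2-fold both without and with LPS, and the DNA before their start sites is shown for that reason. Each sequence is the 250 bases before a RefSeq start on GRCh38.p14, read 5′ to 3′ on the minus strand, on which all 4 genes lie. Capitals mark matches to 4 motifs, searched on both strands: AGGTCA (a nuclear receptor half-site), CACGTG (an E-box), CCAAT and TATAA. CIDEC has 2 RefSeq start sites, and the first is printed.
PLIN1, chr15:89679368-89679617: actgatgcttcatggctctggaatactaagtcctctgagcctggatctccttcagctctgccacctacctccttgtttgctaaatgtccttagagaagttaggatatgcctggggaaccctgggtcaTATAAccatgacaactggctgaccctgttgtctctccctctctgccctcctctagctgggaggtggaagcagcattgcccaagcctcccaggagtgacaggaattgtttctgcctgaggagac
PLIN4, chr19:4518487-4518736: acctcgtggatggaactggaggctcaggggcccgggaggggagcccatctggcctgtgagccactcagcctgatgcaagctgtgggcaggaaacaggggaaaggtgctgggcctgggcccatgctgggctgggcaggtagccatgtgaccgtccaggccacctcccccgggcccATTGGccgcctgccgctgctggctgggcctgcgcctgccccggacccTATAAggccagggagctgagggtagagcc
CIDEC, chr3:9880254-9880503: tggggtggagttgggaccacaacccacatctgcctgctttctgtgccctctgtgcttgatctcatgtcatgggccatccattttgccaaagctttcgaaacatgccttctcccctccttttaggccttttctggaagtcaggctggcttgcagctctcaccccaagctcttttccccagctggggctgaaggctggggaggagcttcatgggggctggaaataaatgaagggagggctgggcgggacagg
PLIN2, chr9:19127493-19127742: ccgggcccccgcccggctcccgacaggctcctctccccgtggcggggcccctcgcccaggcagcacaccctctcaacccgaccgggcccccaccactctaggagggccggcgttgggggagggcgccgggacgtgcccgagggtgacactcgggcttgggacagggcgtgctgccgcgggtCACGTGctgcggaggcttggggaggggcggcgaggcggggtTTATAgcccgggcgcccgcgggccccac

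PLIN4 held TATAA 29 bases and CCAAT, on the opposite strand, 76 bases before its start. PLIN5, next to PLIN4 on chromosome 19, held a similar pair, with TATAA at 31 bases and CCAAT on the opposite strand at 68 bases, and another TATAA at 203 bases. PLIN2 held CACGTG at 69 bases and TATAA on the opposite strand at 28 bases, PLIN3 held CCAAT on the opposite strand at 77 bases, and PLIN1 held TATAA at 123 bases. FITM1 held CCAAT at 236 bases and TATAA at 216 bases, and TATAA on the opposite strand at 217 bases. CIDEB held CCAAT at 121 bases, but only at start 2 of 2. None of the 4 motifs was found for CIDEC, at either start, for CIDEA or for FITM2, and AGGTCA was found for none of the 10 members. Over 35116 RefSeq promoters searched from 250 bases before to 50 after the start, 13.8% held AGGTCA, 7.26% CACGTG, 34.6% CCAAT and 20.4% TATAA. A match describes letters only, and the absence of one says only that those letters are not in this window.

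In GENCODE release 44 on GRCh38, 3 perilipin genes lie on the minus strand of chromosome 19: PLIN4 at chr19:4502192-4518486, PLIN5 at chr19:4522531-4535224, 4044 bases away, and PLIN3 at chr19:4838341-4867694, a further 303116 bases away. PLIN1 lies at chr15:89664367-89679427, PLIN2 at chr9:19108375-19149290, CIDEC at chr3:9866711-9880255 and FITM2 at chr20:44302840-44311202, all on the minus strand. PLIN1 overlaps PEX11A on the same strand, and PLIN5 and FITM1 each overlap another gene model on the same strand, so reads in those stretches could be divided between genes. PLIN4 overlaps HDGFL2, and CIDEB overlaps NOP9 and LTB4R2, on the opposite strand. The library kit keeps strand, but the strand setting of the counting was not given in the sources used here.

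Counts on named genes totalled 28.4 to 53.8 M per library (1 M is 1e6 counts), with a median of 42.7 M. linc-ADAIN was not analysed here, so its knockdown was not checked in these libraries. All 8 genes of an LPS response list (such as CXCL8 and ICAM1) rose with LPS in scramble and in KD cells, where 5.9% and 5.32% of all genes tested were higher. Of these 8, 5 were also higher in KD than in scramble without LPS, led by CXCL8 (log2 fold change 1.63) and ICAM1 (1.61), against 12.1% of all genes. Of 6 markers of mature adipocytes, ADIPOQ, FABP4 and CD36 were abundant, while LEP, LPL and SLC2A4 reached at most 21, 82 and 22 counts in any library. The leukocyte gene PTPRC reached at most 12 counts and the endothelial gene CDH5 at most 3.

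Levels of different genes were compared per length, as CPM (counts per 1e6, scaled between libraries by the TMM method) per kb of the canonical transcript. In scramble cells PLIN2 was the most abundant member, at 845 ± 69 CPM per kb (SD, n = 3). CIDEC followed at 123 ± 37.2 CPM per kb, then PLIN4 at 58.8 ± 6.91, PLIN1 at 57.1 ± 18.7, PLIN3 at 38.8 ± 3.37 and FITM2 at 7.86 ± 0.883 CPM per kb. The ranges of PLIN1 and PLIN4 overlapped, as did those of PLIN1 and PLIN3, whereas PLIN2, CIDEC and FITM2 each stood apart from their neighbours. The other 4 members were barely detected.

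CIDEA, which is typical of thermogenic fat, had 5 counts in 1 scramble library and 0 in the other 11 libraries, and was not tested. A count of 0 allows up to 3 counts, or 0.0557 to 0.105 CPM depending on the library, and this limit covers counting error only. FITM1, the muscle form of the FITM proteins, had 0 to 10 counts, with 10 in 1 KD library and 8 in 1 KD + LPS library. PLIN5, the perilipin of oxidative tissues, and CIDEB, known from liver, had 0 to 53 and 2 to 45 counts.

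The first question was what linc-ADAIN KD does to these genes without LPS. Of the 9 members tested, 6 were lower in KD (adjusted p under 0.05, edgeR quasi-likelihood test with Benjamini-Hochberg adjustment over 16217 genes), namely PLIN1, PLIN2, PLIN3, PLIN4, CIDEC and FITM2, and the other 3 did not pass. Among all genes tested, 15.1% were lower by the same rule. With a 2-fold difference also required, 4 members were lower (PLIN1, PLIN2, PLIN4 and CIDEC), against 3.49% of all genes. That count was 3 to 5 when 1 library was left out. All 3 KD libraries were below all 3 scramble libraries in CPM for 8 of the 9 members, FITM1 being the exception, and this was so for 22.5% of all genes. For PLIN5 and CIDEB, both at low counts, the gap was too narrow to be read as a separation. The lowest scramble and highest KD libraries were at 0.589 and 0.576 CPM for PLIN5. For CIDEB they were at 0.451 CPM (21 counts) and 0.446 CPM (24 counts). The median log2 fold change of the members was -1.14, and that of all genes was 0.02.

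PLIN1, the adipocyte perilipin, measured 115, 161 and 223 CPM in scramble and 105, 81.8 and 38.9 CPM in KD. The groups did not overlap, but the lowest scramble library lay only a little above the highest KD library. The log2 fold change was -1.14 (SE 0.30, adjusted p = 0.014, edgeR), or 2.2-fold lower. It rested in part on scramble replicate 3, without which the log2 fold change was -0.88 and the edgeR adjusted p 0.073. Without KD replicate 3 it passed (edgeR adjusted p = 0.023) but at -0.83 was short of 2-fold. DESeq2 gave PLIN1 an adjusted p of 0.049. PLIN4, a long perilipin found in white fat and muscle, measured 342, 374 and 431 CPM in scramble and 176, 127 and 70.6 CPM in KD. These groups were far apart, and at -1.61 (SE 0.24, adjusted p = 0.00038, edgeR), 3.06-fold lower, PLIN4 had the largest fall among the members that passed.

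CIDEC, which fuses droplets into the single large droplet of the white adipocyte, measured 113, 159 and 210.1 CPM in scramble and 87.1, 62.1 and 29.9 CPM in KD. The groups did not overlap and the log2 fold change was -1.43 (SE 0.31, adjusted p = 0.0046, edgeR), or 2.69-fold lower. PLIN2, which coats smaller droplets and is made in most cells that store lipid, measured 1522, 1535 and 1755 CPM in scramble and 745, 672 and 615 CPM in KD. Its libraries lay close together within each group, and the log2 fold change was -1.24 (SE 0.09, adjusted p = 1.4e-06, edgeR), or 2.36-fold lower.

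PLIN3, which moves between the cytosol and new droplets, showed the smallest fall, from 92.6, 88.9 and 78.1 CPM in scramble to 55.9, 57.9 and 65.7 CPM in KD. The groups did not overlap, with a log2 fold change of -0.53 (SE 0.092, adjusted p = 0.0011, edgeR), or 1.44-fold lower. FITM2, the widely expressed FITM protein, measured 33.5, 34.6 and 41.1 CPM in scramble and 20.6, 20.2 and 15.3 CPM in KD. Its log2 fold change was -0.95 (SE 0.13, adjusted p = 0.00021, edgeR), just short of the 2-fold limit. PLIN5 (31, 52 and 53 counts in scramble, 20, 13 and 10 in KD) and CIDEB (44, 45 and 21 counts against 8, 24 and 12) had log2 fold changes of -1.35 (SE 0.64) and -1.12 (SE 0.66). At this depth neither difference passed the test, with edgeR adjusted p of 0.14 and 0.24.

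**Figure D1:**
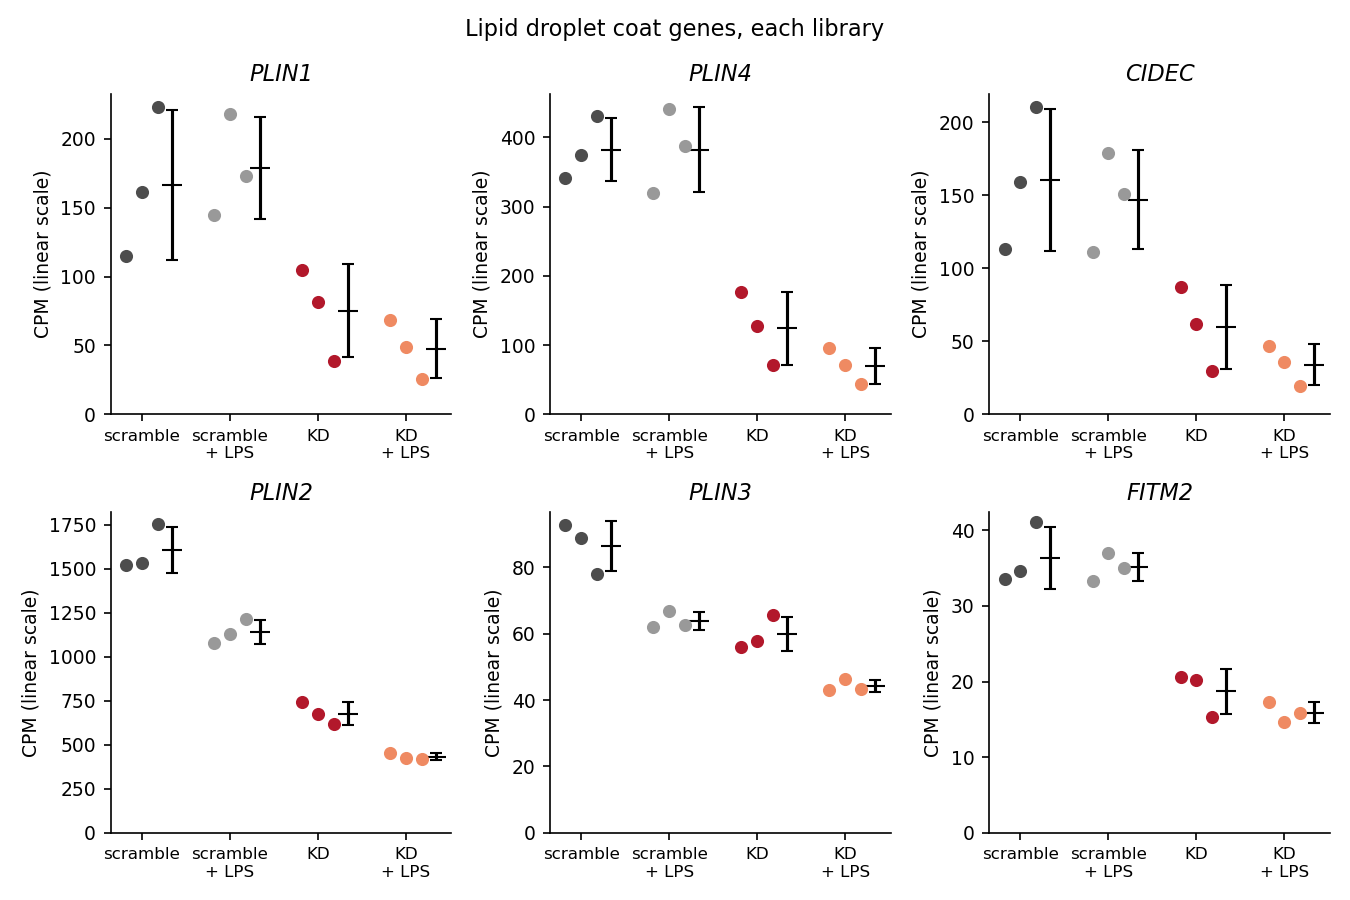
CPM (vertical axis, linear from 0, a separate scale for each gene) of the 6 well detected members in each of 12 libraries, by group on the horizontal axis. Points are libraries and black bars the mean ± SD (n = 3). For each gene all KD libraries lie below all scramble libraries under the same LPS condition, and PLIN2 and PLIN3 also step down with LPS.

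The same comparison was made between KD + LPS and scramble + LPS, on 6 other libraries. The same 6 members passed and were lower in KD, against 14.2% of 15981 genes, and the other 3 tested did not pass. With the 2-fold limit there were 5, since FITM2 (log2 fold change -1.14, SE 0.11, edgeR adjusted p = 4.4e-06) was now past it, against 3.9% of all genes. For 7 of the 9 members tested the KD + LPS libraries were all below the scramble + LPS libraries, as for 20.6% of all genes. These were the 6 that passed and PLIN5, whose groups all but touched. Its lowest scramble + LPS library (16 counts) and its highest KD + LPS library (19 counts) were both at 0.409 CPM. The median was -1.40 for the members and 0.03 for all genes.

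PLIN4 measured 319, 441 and 387 CPM in scramble + LPS and 95.5, 71 and 43.4 CPM in KD + LPS, a log2 fold change of -2.45 (SE 0.21, adjusted p = 1.5e-06, edgeR), or 5.45-fold. CIDEC measured 111, 179 and 151 CPM against 47, 35.8 and 19.3 CPM, with a log2 fold change of -2.11 (SE 0.25, adjusted p = 2.3e-05, edgeR). PLIN1 measured 145, 218 and 173 CPM against 68.1, 49 and 25.9 CPM, with a log2 fold change of -1.90 (SE 0.25, adjusted p = 7.1e-05, edgeR). For each of these 3 genes even the highest KD + LPS library was well below the lowest scramble + LPS library. PLIN2 measured 1078, 1127 and 1215 CPM against 454, 427 and 418 CPM, a log2 fold change of -1.40 (SE 0.073, adjusted p = 1.1e-08, edgeR). PLIN3 again differed least, at 62, 66.9 and 62.7 CPM against 43, 46.2 and 43.2 CPM, a log2 fold change of -0.53 (SE 0.086, adjusted p = 0.00038, edgeR).

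PLIN5, with 16, 42 and 27 counts in scramble + LPS and 1, 19 and 0 in KD + LPS, had a log2 fold change of -2.37 (SE 1.2) that did not pass (edgeR adjusted p = 0.17). Without KD + LPS replicate 2 it was -5.43 with an edgeR adjusted p of 0.019, so that 1 library decided this call. The groups of CIDEB overlapped (log2 fold change -1.33, SE 0.93, edgeR adjusted p = 0.34).

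LPS alone was compared in scramble cells. PLIN2 and PLIN3 were the members that changed, 2 of 8 tested, both lower, and the other 6 did not pass; 8.38% of 15920 genes were lower by the same rule. PLIN2 went from the scramble values above to 1078, 1127 and 1215 CPM with LPS, a log2 fold change of -0.48 (SE 0.084, adjusted p = 0.0026, edgeR), and PLIN3 had a log2 fold change of -0.43 (SE 0.084, adjusted p = 0.0053, edgeR). Their groups did not overlap, as was so of 17.8% of all genes in this direction. No member reached 2-fold: 1.28% of all genes were lower by 2-fold, and 2 members had an unadjusted p under 0.05 in edgeR, neither of them at 2-fold. DESeq2 also called none at 2-fold. PLIN1 had a log2 fold change of 0.11 (SE 0.20), PLIN4 of 0.01 (SE 0.12), CIDEC of -0.11 (SE 0.20) and FITM2 of -0.04 (SE 0.10). The sign of each of these 4 turned when 1 library was left out, and that of PLIN4 also when libraries were scaled by their size only (-0.03), so no direction is given for them.

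In KD cells PLIN2 and PLIN3 were again lower with LPS, 2 of 9 members tested, against 6.03% of 16169 genes, and their groups did not overlap, as for 13.7% of all genes. PLIN2 had a log2 fold change of -0.64 (SE 0.078, adjusted p = 5.4e-05, edgeR), from 745, 672 and 615 CPM to 454, 427 and 418 CPM. PLIN3 had a log2 fold change of -0.44 (SE 0.095, adjusted p = 0.0065, edgeR). No member was lower by 2-fold (0.946% of all genes were), while 4 members had an unadjusted edgeR p under 0.05, none at 2-fold, and DESeq2 called none at 2-fold. PLIN4 (log2 fold change -0.83, SE 0.28, edgeR adjusted p = 0.071), CIDEC (-0.81, SE 0.32, edgeR adjusted p = 0.13) and PLIN1 (-0.66, SE 0.31, edgeR adjusted p = 0.23) did not pass. For all 3, KD replicate 3 lay below KD + LPS replicate 1. Without that library all 3 passed, and 5 members were called, with log2 fold changes of -1.12, -1.14 and -0.98 and edgeR adjusted p of 0.0045, 0.0087 and 0.025. PLIN4 also passed without KD + LPS replicate 1 (-1.12, edgeR adjusted p = 0.021) and in a fit on all 12 libraries (edgeR adjusted p = 0.045). With no filter on low counts, PLIN1, PLIN4 and CIDEC passed on the same 6 libraries (edgeR adjusted p = 0.0077, 7.6e-05 and 0.00096). With the replicate number as a block they passed too (edgeR adjusted p = 3.1e-07, 7.6e-13 and 6.7e-09), although the numbers were not shown to pair the libraries.

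Whether LPS alters the KD effect was asked of all 12 libraries through the interaction of shRNA and LPS. None of the 9 members tested passed in edgeR, where 1.28% of 17173 genes did, and none passed in DESeq2. PLIN4 was the 1 member with an unadjusted edgeR p under 0.05, at -0.83 on the log2 scale (SE 0.36, adjusted p = 0.39). PLIN1 was at -0.76 (SE 0.45, adjusted p = 0.58), CIDEC at -0.68 (SE 0.45, adjusted p = 0.63), PLIN2 at -0.15 (SE 0.12, adjusted p = 0.70) and PLIN3 at 0.00 (adjusted p = 1), all from edgeR. No SE is given for PLIN3, since the way it is formed is unstable for so small a difference. The SE of PLIN3 was 0.12 without scramble replicate 3 and 0.13 without scramble + LPS replicate 2. The larger KD differences with LPS given above were thus not shown to differ from those without.

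**Figure D2:**
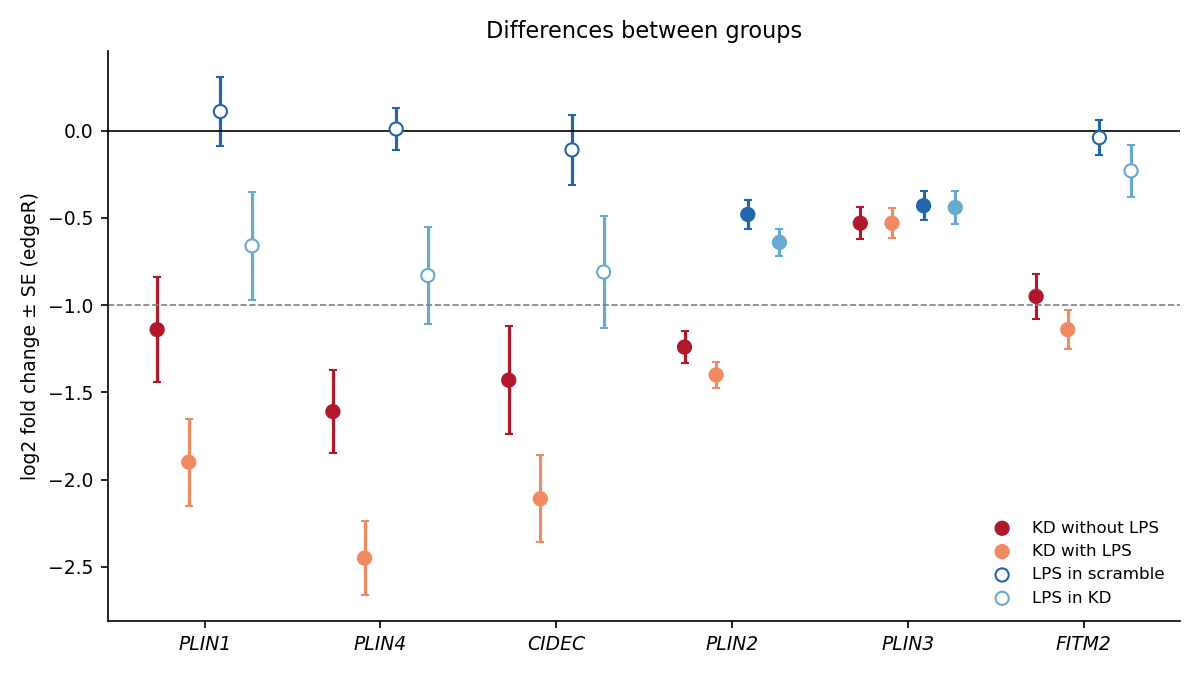
log2 fold change ± SE (vertical axis) of the 6 well detected members (horizontal axis) in the 4 comparisons of groups, by color. Filled points passed an adjusted p of 0.05 and open points did not, whatever the fill in the key, and the dashed line marks a 2-fold fall. PLIN2 and PLIN3 are filled in all 4 comparisons, and PLIN1, PLIN4, CIDEC and FITM2 only in those of KD.

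Summed per length, the 5 perilipins reached 1000.5 ± 90 CPM per kb in scramble, 749.9 ± 48.6 in scramble + LPS, 429 ± 51.7 in KD and 275 ± 20.5 in KD + LPS (SD, n = 3 each). The lowest scramble library, at 936 CPM per kb, was above the highest KD library, at 481. PLIN2 made up 84.5% ± 1.03 of this sum in scramble, 80.2% ± 2.38 in scramble + LPS, 83.4% ± 2.15 in KD and 83.1% ± 2.93 in KD + LPS. The PLIN3 share was 3.92% ± 0.659 and 3.82% ± 0.227 in the scramble groups and 6.36% ± 1.32 and 7.21% ± 0.611 in the KD groups, whose libraries were all higher. The PLIN4 share was 5.87% ± 0.216 in scramble and 4.36% ± 1.39 in KD.

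**Figure D3:**
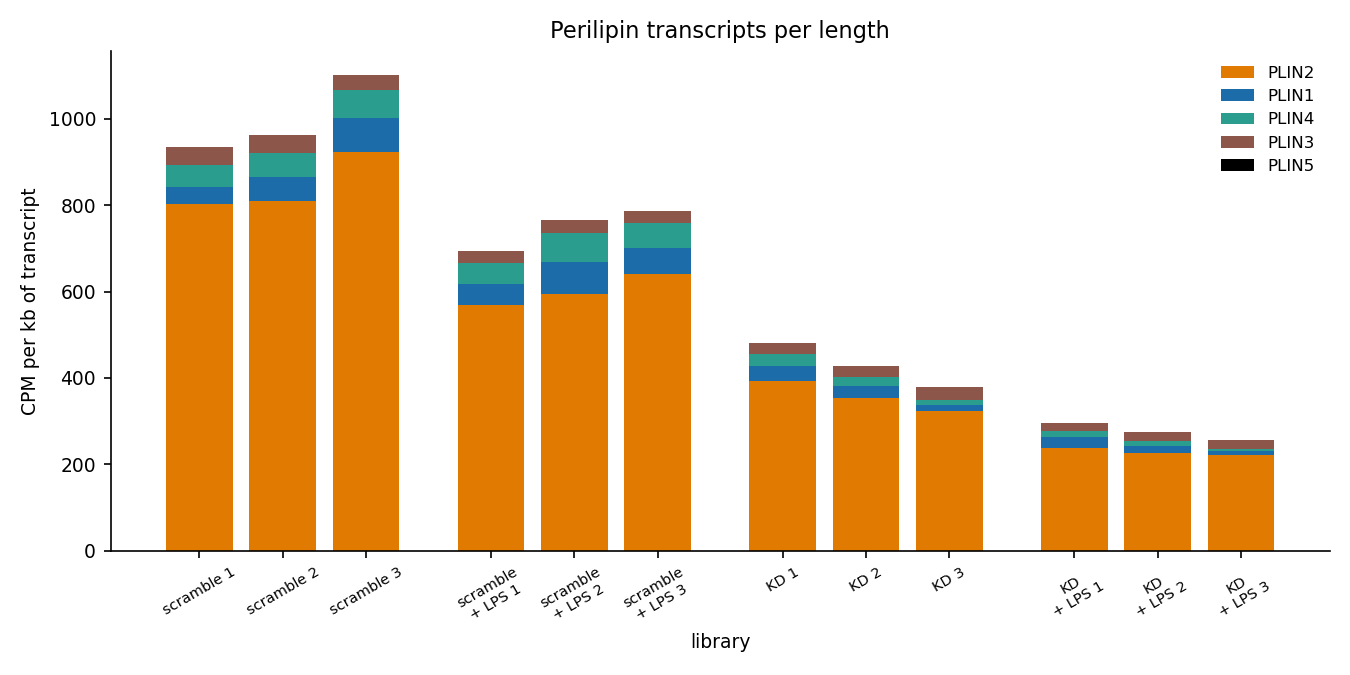
Summed perilipin level in CPM per kb of canonical transcript (vertical axis, linear from 0) in each library (horizontal axis), stacked by gene. PLIN2 fills most of every bar, PLIN5 is too low to be seen, and the sums fall from 936 or more in scramble to 296 or less in KD + LPS.

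The balance of the adipocyte perilipin with the general ones was tested as a ratio within each library, which library scaling does not touch. The log2 ratio of PLIN1 to PLIN2 differed by -0.28 between KD and scramble (exact two-sided permutation test within LPS condition, 400 arrangements, p = 0.375, adjusted p = 0.5 over 4 tests). The log2 ratio of PLIN1 to PLIN3 differed by -1.07, with KD lower, which did not hold after correction (exact permutation p = 0.03, adjusted p = 0.12). For LPS the differences were 0.31 for PLIN1 to PLIN2 (exact permutation p = 0.3, adjusted p = 0.5) and 0.18 for PLIN1 to PLIN3 (exact permutation p = 0.64, adjusted p = 0.64). Both the shRNA and the LPS values pool unlike changes. The mean log2 ratio of PLIN1 to PLIN2 was -3.32 in scramble and -3.28 in KD, but -2.69 in scramble + LPS and -3.29 in KD + LPS. The mean log2 ratio of PLIN1 to PLIN3 was 0.89 in scramble and 0.22 in KD, and 1.46 in scramble + LPS and 0.00 in KD + LPS. Whether the LPS difference in these ratios itself differed between scramble and KD was not tested. The smallest p that this test can give is 0.005.

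The members differed in how far the libraries of a group lay apart. The coefficient of variation within groups was 20.4% to 44.7% for PLIN1, 23.3% to 48% for CIDEC and 11.8% to 42.5% for PLIN4, but 4.22% to 9.63% for PLIN2 and 4.01% to 8.7% for PLIN3. FITM2, at 5.25% to 15.8%, lay between and overlapped both sets. In both KD groups PLIN1, PLIN4, CIDEC and PLIN2 were highest in replicate 1 and lowest in replicate 3, but PLIN2 varied less. In KD replicate 3 log2 CPM of PLIN1, PLIN4 and CIDEC was 0.84, 0.72 and 0.87 below the group mean. There PLIN2 was 0.13 below and PLIN3 0.14 above. In scramble replicate 3 PLIN1 and CIDEC were 0.48 and 0.43 above. The summed CPM of the 6 adipocyte markers moved with them, at 2549, 2864 and 3497 in scramble and 1442, 1111 and 478 in KD.

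**Figure D4:**
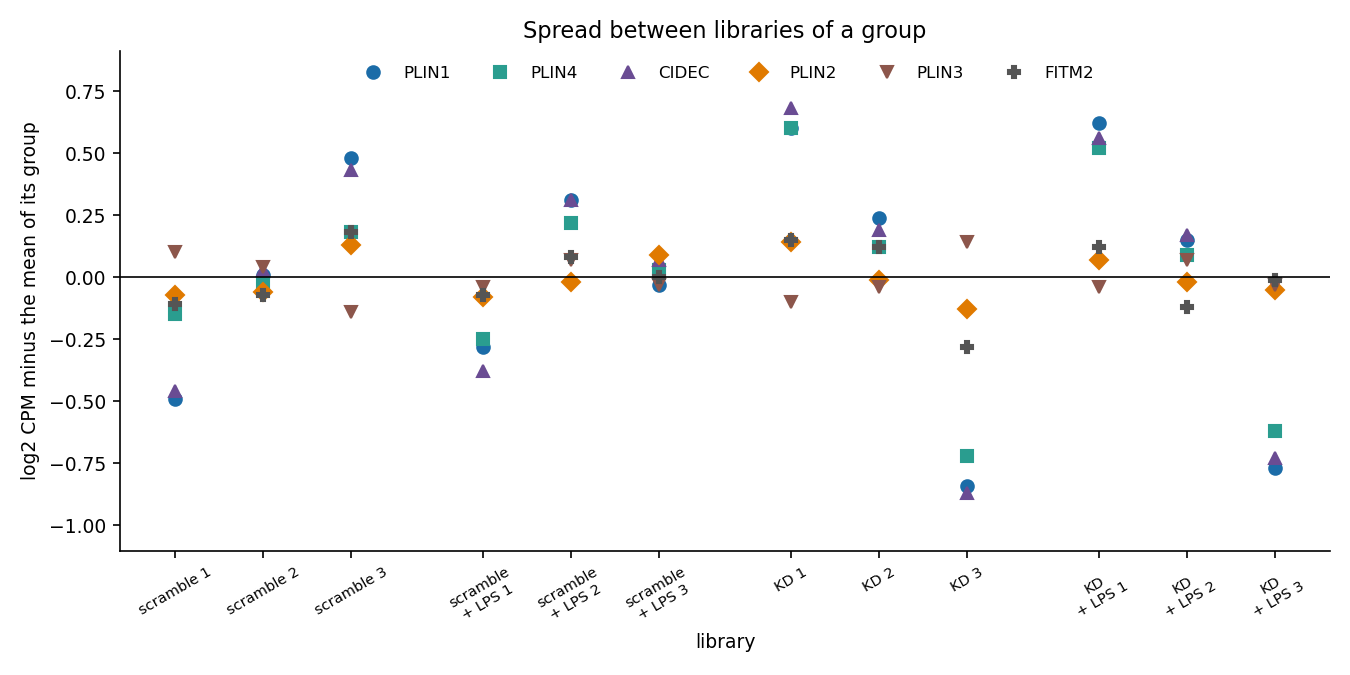
log2 CPM minus the mean of its group (vertical axis) for the 6 well detected members in each library (horizontal axis). In the KD and KD + LPS libraries numbered 1 and 3, PLIN1, PLIN4 and CIDEC lie farther from 0 than the other members, down to -0.87 in KD replicate 3. PLIN2 and PLIN3 stay within 0.14 of the group mean in every library.

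Over the 12 libraries, log2 CPM of PLIN1 correlated at r = 0.993 with CIDEC, 0.975 with PLIN4, 0.927 with FITM2, 0.868 with PLIN2 and 0.647 with PLIN3. Over 11805 genes that averaged 50 counts or more, the non-members most like PLIN1 were ITGA7 (r = 0.989), PRXL2A (0.989), ADIPOQ, which encodes adiponectin (0.987), LIPE, the hormone-sensitive lipase (0.981), and AOC3 (0.98). These values describe libraries that share the differences between groups.

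Other genes of lipid storage were taken from lists. Of 8 genes of triglyceride synthesis, 5 were lower in KD without LPS (median log2 fold change -0.47), among them GPAM, the first acyltransferase of the pathway (-1.31, SE 0.11, edgeR adjusted p = 4.4e-06), and DGAT2, which adds the last acyl chain (-1.06, SE 0.16, edgeR adjusted p = 0.00043), and the other 3 did not pass. That count was 3 when scramble replicate 1 or 3 or KD replicate 2 or 3 was left out, and 3 with library size only. Of 10 genes of lipolysis at the droplet, 6 were lower (median -0.93), among them AQP7, the glycerol channel (-1.72, SE 0.29), and LIPE (-1.11, SE 0.33), and 4 did not pass. Of all genes, 15.1% were lower in KD without LPS. With LPS, 5 of 8 and 7 of 10 were lower in KD, against 14.2% of all genes, with medians of -1.05 and -1.06. In scramble cells 1 gene of each list was lower and 1 higher with LPS, against 8.38% and 5.9% of all genes. Single genes in lists this short are not read as a result. In KD cells 3 of 8 genes of triglyceride synthesis were lower with LPS, and 1 gene of lipolysis was lower and 1 higher. Of all genes, 6.03% were lower and 5.32% higher with LPS in KD cells. The lipolysis calls went from 2 to 4 without KD replicate 3.

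Of 13 genes of droplet formation and other droplet proteins, 4 were lower and 1 higher in KD without LPS, and the median, -0.10, lay near that of all genes. The largest falls were those of METTL7B, a droplet-associated methyltransferase (-1.52, SE 0.25), and CAV1, the caveolar coat protein (-1.32, SE 0.075). Of 14 adipogenic regulators, 5 were lower and 4 higher, where 15.1% of all genes were lower and 12.1% higher. SREBF1 and NR1H3, regulators of lipid synthesis, fell (-1.23, SE 0.099, and -1.08, SE 0.12), and KLF5, an early adipogenic factor, rose (2.33, SE 0.36). With LPS the counts were 3 lower and 1 higher of 13, and 7 lower and 5 higher of 14, against 14.2% lower and 12.7% higher of all genes.

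Markers of cell types also differed between KD and scramble. Of 6 mature adipocyte markers tested, 3 were lower in KD without LPS, against 15.1% of all genes. Among them were FABP4 at -1.65 (SE 0.27) and ADIPOQ at -1.39 (SE 0.34), and the other 3 of the list were the scarcely detected ones. Their summed CPM was 2549 to 3497 in scramble, 3052 to 3354 in scramble + LPS, 478 to 1442 in KD and 406 to 960.1 in KD + LPS. Of 6 adipose stromal markers tested, 5 were higher in KD without LPS, against 12.1% of all genes, led by DPP4 (2.07, SE 0.11) and LUM (2.02, SE 0.097), and 1 lower, THY1 (-2.37, SE 0.11). The summed CPM of the stromal list was 4717 to 6084 in scramble, 4745 to 5539.7 in scramble + LPS, 7936 to 9510.3 in KD and 9237 to 10743 in KD + LPS. The part of these markers in the lower coat genes was not tested, and in bulk RNA fewer adipocytes and less RNA per adipocyte cannot be told apart.

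Of the leukocyte list, CD163 was higher (3.99, SE 0.20) and CD68 lower in KD without LPS. The summed CPM of that list was 57.2 to 60.5 in scramble and 88.2 to 117 in KD. In the endothelial list VWF was lower (-2.12, SE 0.21), and the list summed to at most 19 CPM in any library. The smooth and striated muscle list summed to at most 34.2 CPM, with 1 of its 2 tested genes lower in KD without LPS, as were 15.1% of all genes. The thermogenic list, which includes CIDEA, summed to at most 2.91 CPM. Scaling by library size only moved the median of all genes to 0.13 without LPS and 0.11 with LPS, and the lower share of all calls from 55.5% to 38.6% and from 52.8% to 40.8%. For LPS in KD that share went from 53.1% to 64.8%, and for the interaction from 26% to 37.1% with upper-quartile scaling. The 6 members lower in KD passed under that scaling as well.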

How the data were processed

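RNA-seq libraries were prepared from polyA RNA with a stranded kit. Per the labels' processing notes and the methods, the authors pseudoaligned reads with kallisto 0.44.0 to human transcriptomes (GRCh38) and deposited estimated counts per gene name, without scaling for library size or length. The annotation release is not given in the sources used here. The deposited values were whole numbers and were used rounded. A row without a gene name held 0.235% to 0.306% of counts and was left out.

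In R 4.3.3, genes with at least 10 counts over the libraries of a fit were tested with edgeR 4.0.16 (TMM, quasi-likelihood F test, Benjamini-Hochberg). The SE is the log2 fold change divided by the square root of F. Each comparison used its own 6 libraries and the interaction used 12. Alternatives were DESeq2 1.42.0, the tool of the study's methods, other scalings, filters, a replicate block, all 12 libraries and each library left out. Total counts of 28.4 to 53.8 M (1 M is 1e6) per library set the precision of genes with few counts. The steps were tested on simulated counts in which every gene had the same small spread and only well counted genes changed, by large folds. That setting does not cover genes as variable as PLIN1, PLIN4 and CIDEC, or small changes. All 10 members matched RefSeq promoters, and lengths and positions come from GENCODE release 44. Motifs were searched in 300 bases and 250 are printed.

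The members, lists and tests were chosen with earlier results of these data known. Named in the text were all members, the 5 genes most like PLIN1 by correlation, and in each list up to 2 rises and 2 falls past an adjusted p of 0.05 and 2-fold in KD without LPS. CD36, CD68, LEP, LPL, SLC2A4, PTPRC and CDH5 fall outside this rule and were named after their values were seen.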

Additional observations from a re-analysis of the deposited data

How the results depend on the processing

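The calls of PLIN2, PLIN3, PLIN4, CIDEC and FITM2 as lower in KD, with and without LPS, held under every alternative run, and those of PLIN1 did except without scramble replicate 3. Of 44 member results, 29 kept direction and side of the threshold throughout, 10 turned sign under at least 1 alternative, 1 lost its call and 4 gained one. The members called for LPS in KD numbered 2, but 5 with no filter on low counts and 5 with the replicate block, and 2 to 5 when 1 library was left out, with 0 to 2 of them at 2-fold. With no filter the edgeR adjusted p of PLIN1, PLIN4 and CIDEC was 0.0077, 7.6e-05 and 0.00096, and with all 12 libraries that of PLIN4 was 0.045. The cause was not tested. The LPS difference in the log2 ratio of PLIN1 to PLIN3 was -0.07 to 0.36 when 1 library was left out, turning sign without KD replicate 3. With library size only, LPS in scramble gave PLIN4 -0.03 and CIDEB -0.02.

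When 1 library was left out, log2 fold changes whose sign turned ranged, for LPS in scramble, from -0.09 to 0.38 (PLIN1), -0.10 to 0.13 (PLIN4), -0.78 to 0.16 (PLIN5), -0.21 to 0.31 (CIDEB), -0.31 to 0.13 (CIDEC) and -0.09 to 0.06 (FITM2). For LPS in KD they ranged from -1.03 to 0.34 (CIDEB) and -0.69 to 5.16 (FITM1), and for the interaction from -0.05 to 0.07 (PLIN3) and -1.10 to 0.32 (CIDEB). Over all genes, calls for LPS in scramble numbered 2274, and 1187 without scramble replicate 2 or 1461 without scramble + LPS replicate 3. Interaction calls numbered 219, with 475 in DESeq2, 431 with no filter and 92 to 243 with 1 library left out.

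The replicate numbers shared between groups were not shown to mark a pairing: the correlation of same-numbered deviations was -0.09 to 0.22, and not every library was most like its own number. With the replicate block, PLIN1, PLIN4 and CIDEC passed for LPS in KD (log2 fold changes -0.65, -0.81 and -0.78) and no call of a member was lost. The block also moved the lipolysis genes called from 2 to 4 for LPS in scramble and from 2 to 4 for LPS in KD. PLIN5, CIDEA, CIDEB and FITM1 are limited by depth.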
